A study of Homo sapiens with 6 samples.

Results

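MALAT1, NEAT1, KCNQ1OT1, TUG1, NORAD and OIP5-AS1 are 6 of the most studied human long noncoding RNAs, and they were read here in cells treated for 4 h with saikosaponin A (SsA) at 20 µM and in cells given the vehicle DMSO for 4 h. They were taken by gene name, as 6 of the 29435 rows of the deposited gene table, without use of their values. SsA is a plant saponin from the root of Bupleurum. There were 3 RNA-seq libraries per group, and the cells carry the label HepG2, a line from a human liver tumour. The labels do not say whether the replicates were separate cultures, so p-values measure the spread between these libraries, which may be technical. RNA was selected on oligo(dT) beads, which hold polyadenylated RNA.

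Long noncoding RNAs are classed as RNAs without a known protein product, although the deposited row of TUG1 also lists a protein-coding transcript type. MALAT1 lies in nuclear speckles, where splicing factors gather, and the long isoform of NEAT1 is the scaffold of paraspeckles, nuclear bodies built on RNA. KCNQ1OT1 is transcribed antisense to KCNQ1 from one parental chromosome and silences imprinted genes around it. TUG1 has been linked to Polycomb proteins, NORAD binds the Pumilio proteins in the cytoplasm, and OIP5-AS1, called Cyrano in fish and mouse, directs the decay of the microRNA miR-7.

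The ends of MALAT1 and NEAT1 are printed here because both RNAs lack a usual poly(A) tail there, which bears on what oligo(dT) beads can hold. What the beads recovered of each RNA was not tested. Each end folds as a triple helix between a U-rich run and an A-rich run, and the RNA downstream is cut off by RNase P. The last 100 nt of MALAT1 lie at chr11:65506017-65506116 and those of the long NEAT1 transcript at chr11:65445441-65445540, both on the plus strand of GRCh38 in GENCODE 29. Capitals mark the letters TTTTGCTTTT and AAAAAGCAAAA, which were read off as stretches that these ends share.
MALAT1 end: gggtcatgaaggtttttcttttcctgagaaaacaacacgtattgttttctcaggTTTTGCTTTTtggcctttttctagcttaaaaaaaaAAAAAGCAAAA
NEAT1 long transcript end: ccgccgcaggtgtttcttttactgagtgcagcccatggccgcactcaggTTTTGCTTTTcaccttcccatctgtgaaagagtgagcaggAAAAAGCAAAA
Both ends hold both runs, each once, because the letters were chosen from them. The shares that follow therefore describe how rare the letters are and test nothing about these ends. The MALAT1 stretch stops before the tRNA-like RNA, whereas the stretches of the other genes stop where the annotated transcript ends. Among the last 100 nt of the longest transcripts of 11308 tested genes, the U-rich letters were present in 0.195% on the transcript's strand and in 0.168% on the other strand. The A-rich letters were present in 0.0796% on the transcript's strand and in 0.0707% on the other. The small tRNA-like RNA that starts at the next base of MALAT1, at chr11:65506117-65506173, had a row of its own with 6 counts over all 6 libraries.

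The Pumilio elements of NORAD and the miR-7 sites of OIP5-AS1 are the sequences through which these RNAs are known to bind. The motif TGTANATA occurred 15 times in the 5339 nt of NORAD, or 2.81 times per kb, and once on the other strand, counting overlapping matches. Of the 2560 tested longest transcripts that are at least as long, 0.0781% held as many in a stretch of that length from their start, NORAD included. The motif occurred 6 times in NEAT1, 2 times in TUG1, 1 time in OIP5-AS1 and 0 times in MALAT1. Elements 4, 11 and 14 of NORAD are printed as examples in which the letters ctg stand before the motif. Not all of the 15 stand in this setting, and elements 3, 6, 8 and 15 among them lack it. The printed elements lie at chr20:36049501-36049530, chr20:36047971-36048000 and chr20:36047350-36047379, on the minus strand, with the motif of the named element in capitals. The stretch of element 4 also holds the whole motif of element 5, at position 1451, left in small letters.
NORAD element 4: ttacttatctgTGTATATAgtgtacataaa
NORAD element 11: caaccctactgTGTATATAgcggacaaact
NORAD element 14: caatgctactgTGTATATAatggaaaactt
The mature miR-7 (hsa-miR-7-5p, RefSeq, GRCh38, chr9:83969811-83969834, minus strand) is shown with its seed in capitals, followed by the OIP5-AS1 site at chr15:41300569-41300598 (plus strand), whose capitals pair with that seed.
hsa-miR-7-5p: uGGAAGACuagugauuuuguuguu
OIP5-AS1 site: ttaagaacaacaaaatcaccaatGTCTTCC
OIP5-AS1 held the seed match GTCTTCC at 3 places. At the site shown, a further run of 14 nt pairs with the 3′ part of miR-7, and at the other sites the longest such run is 5 nt and 3 nt. Among 591 tested transcripts at least as long, 48.2% held the seed match, so its presence alone is common at this length.

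**Figure D1:**
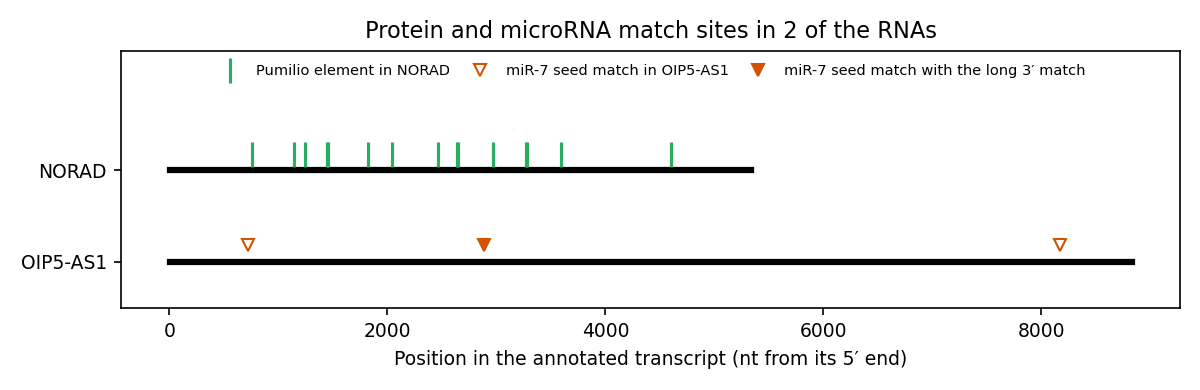
Match sites along the annotated transcripts of NORAD and OIP5-AS1, with the distance from the 5′ end in nt on the horizontal axis. Green ticks mark the 15 Pumilio motifs of NORAD; orange triangles mark the 3 miR-7 seed matches of OIP5-AS1, the filled one having the further match of 14 nt.

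The libraries held 57768359 to 74912492 counts. SsA replicate 1 and DMSO replicate 3 stood apart, with 18.8% and 14.9% of counts on mitochondrial genes, against 7.62% to 8.28% in the other SsA libraries and 6.19% to 6.36% in the other DMSO libraries. Results below are therefore also given in the 4 libraries of low mitochondrial share where that share moved with a gene. Defining hepatocyte genes were near 0: of 16 listed, 9 had a row and 8 of these averaged below 0.1 FPKM, among them HNF4A with at most 8 counts, and CEBPA alone reached 4.34 FPKM, while the epithelial keratin KRT7 averaged 339 FPKM. The levels below are thus those of cells labelled HepG2 in which most hepatocyte transcripts were near 0. Summed endothelial markers were 0.457 to 0.485 FPKM in SsA and 0.831 to 0.922 FPKM in DMSO, with 0 of 3 reaching 1 FPKM. Nearly all of this sum was CDH5, which averaged 0.655 FPKM over all libraries, against 0.0172 for PECAM1 and 0.00342 for VWF. The difference is thus that of CDH5 and not of endothelial markers in general, and its part in the results was not tested. Summed hepatocyte, fibroblast, leukocyte and epithelial markers overlapped between the groups. In bulk RNA, fewer cells of a type and less RNA per cell cannot be told apart.

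All 5 of the RNAs that passed the expression filter were lower in SsA by edgeR's quasi-likelihood test at an adjusted p below 0.05, while KCNQ1OT1 did not pass the filter. The filter asked for at least 1 FPKM in at least 3 libraries. Of the 11427 rows tested, 27.9% were called lower, 25.9% higher and 53.8% in either direction. The 5 had log2 fold changes (SsA minus DMSO) of -1.32 to -0.22 with a median of -0.79, against a median of 0.03 over all tested rows. In 4 of the 5 no SsA library overlapped the DMSO libraries, as was so for 62.8% of all tested rows. Together the 6 rows took 0.138% ± 0.0245 of all counts in SsA and 0.264% ± 0.0599 in DMSO (SD, n = 3 each), and the groups did not overlap (exact permutation p = 0.1, two-sided, the smallest that 3 against 3 allows). The falls were not alike: MALAT1 fell most and OIP5-AS1 least, and 2 of the 5 turned in direction with a correction for transcript length, as described below.

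**Figure D2:**
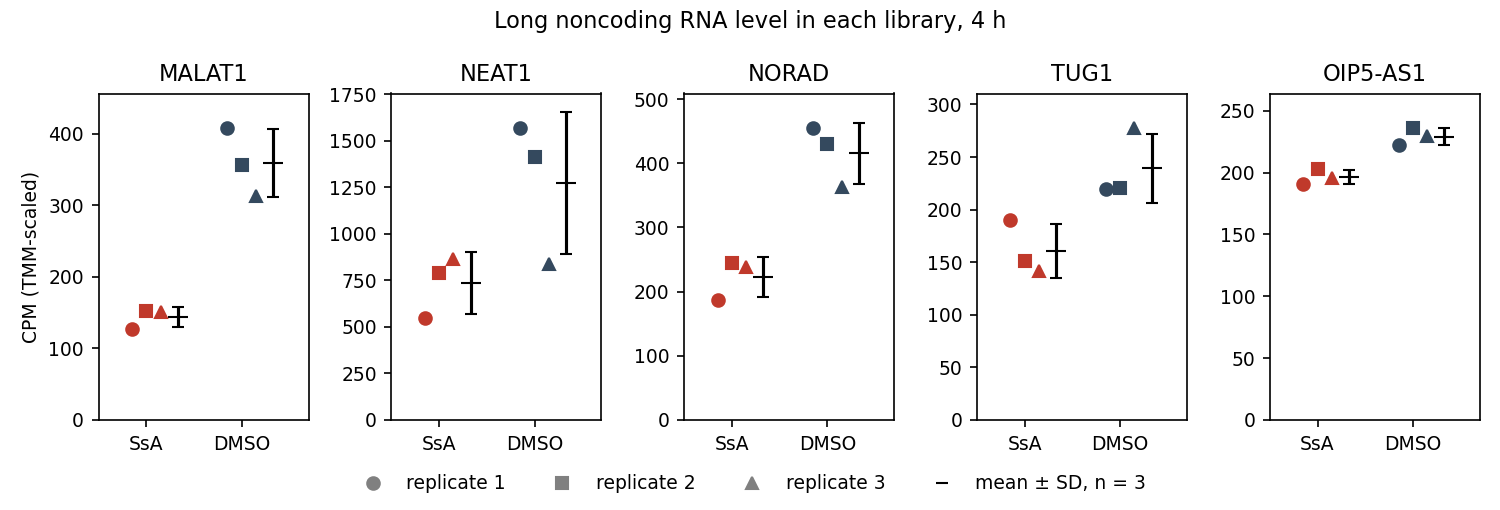
CPM of each RNA in each library (vertical axis from 0), with SsA on the left and DMSO on the right of each panel, the symbols giving the replicate and the bar the mean ± SD of 3 libraries. The groups are apart for MALAT1, NORAD, TUG1 and OIP5-AS1, and DMSO replicate 3 of NEAT1, at 840.0 CPM, lies among the SsA libraries.

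MALAT1 (ENSG00000251562, chr11:65497688-65506469, plus strand, GRCh38) is the RNA of nuclear speckles. It had 128, 153 and 150.4 CPM (the row's counts over the library size after TMM scaling) in SsA replicates 1, 2 and 3, against 408, 356 and 313 CPM in DMSO replicates 1, 2 and 3. Every SsA library lay below every DMSO library, and replicate 1 of SsA and replicate 3 of DMSO were the lowest of their groups. The means were 144 ± 13.8 CPM in SsA and 359 ± 47.4 CPM in DMSO (SD, n = 3 each), a log2 fold change of -1.32 ± 0.12 (SE; adjusted p = 2.44e-04). MALAT1 was the 322nd lowest of the 11427 tested rows by fold change, within the lowest 2.81%. A fall of at least 1 on the log2 scale was called in 5.42% of tested rows, and MALAT1 was the only one of the 5 among them. The difference was -1.29 between the high-mitochondrial libraries (SsA replicate 1, DMSO replicate 3) and -1.33 among the other 4, so it was about as large in both kinds of library. MALAT1 was lower and passed the test under all 19 alternatives run, with log2 fold changes of -1.66 to -0.72.

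The nuclear speckle proteins were described as a list of 22 genes, all tested. Of these 2 rose (9.09%), 9 fell (40.9%) and 11 did not pass, beside 25.9% higher and 27.9% lower over all tested rows. The median log2 fold change was -0.05. In the 4 libraries of low mitochondrial share 7 rose and 10 fell, in a fit that called 33.3% of all tested rows higher and 34.5% lower. SRRM2, a large scaffold of speckles, had 283, 171 and 163 CPM in the SsA libraries against 795, 751 and 1294 CPM in the DMSO libraries, a log2 fold change of -2.21 ± 0.29 (adjusted p = 0.00106). SON, the other core scaffold, had 215 ± 7.51 CPM in SsA and 380.4 ± 14.4 CPM in DMSO (log2 -0.82, adjusted p = 1.48e-04), and the splicing cofactor ACIN1 had 159 ± 2.27 and 229.6 ± 7.05 CPM in SsA and DMSO (log2 -0.53, adjusted p = 4.23e-04). METTL16, the methyltransferase that binds the triple helix at the MALAT1 end printed above, fell to 40.4 ± 4.17 CPM in SsA, against 59.9 ± 1.26 CPM in DMSO (log2 -0.57, adjusted p = 0.00187). The members that rose were the SR proteins SRSF7 (log2 0.50) and SRSF2 (log2 0.30). With a correction for transcript length, which called 15.8% of all rows higher and 16.9% lower, 6 of the 22 rose and 4 fell, and SRRM2, SON, ACIN1 and PNISR were the ones that stayed lower.

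NEAT1 (ENSG00000245532, chr11:65422774-65445540, plus strand) is the scaffold RNA of paraspeckles, and was the most counted of the 6. It had 547, 791 and 868 CPM in SsA replicates 1, 2 and 3, against 1567, 1415 and 840.0 CPM in DMSO replicates 1, 2 and 3. The groups overlapped, since DMSO replicate 3 lay between SsA replicates 2 and 3. The means were 735 ± 168 CPM in SsA and 1274 ± 384 CPM in DMSO, with a log2 fold change of -0.79 ± 0.26 (adjusted p = 0.0373). NEAT1 moved with the mitochondrial share: its log2 CPM in SsA replicate 1 was -0.60 relative to the other SsA libraries, and in DMSO replicate 3 it was -0.83 relative to the other DMSO libraries. Within each kind of library SsA was below DMSO, with differences of -0.62 for the high-mitochondrial pair and -0.85 among the other 4. In those 4 libraries alone, SsA replicates 2 and 3 and DMSO replicates 1 and 2, the test gave -0.87 (adjusted p = 2.98e-06). These libraries were very close within each group, with a chi-square per gene of 15.2 in SsA and 15.5 in DMSO. Against the library left out of their group it was 329 to 428, so this p-value rests on a spread that may be technical. With the mitochondrial share as a term the test on all libraries gave -0.60 (adjusted p = 1.58e-04). The call was lost without any one of SsA replicates 1, 2 and 3 or DMSO replicates 1 and 2 (adjusted p = 0.0528 to 0.114), and was held without DMSO replicate 3 (adjusted p = 0.00494). Of the 19 alternatives, 17 gave a lower value in SsA and 6 of these passed the test.

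The isoforms of NEAT1 cannot be separated in these values. The ratio of count to FPKM gives the length by which a gene was divided, and for NEAT1 this was 22.71 ± 0.00739 kb in SsA and 22.72 ± 0.00623 kb in DMSO once scaled by 1566 genes with a single transcript. The longest annotated transcript has 22743 nt and the next longest 3524 nt. One fixed length was thus used in every library, and the same held for MALAT1 (8.81 kb in both groups), TUG1 (10.1 kb), NORAD (5.39 kb) and OIP5-AS1 (12.6 kb). A test of the length before that scaling called 0 of the 5 between groups (limma, adjusted p = 0.593 for each) and 0.246% of 11391 rows. FPKM of NEAT1 therefore understates its abundance to the degree that reads came from the short isoform.

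The genes of paraspeckle proteins moved in both directions. Of 20 listed genes, all tested, 4 rose (20.0%), 3 fell (15.0%) and 13 did not pass, with a median log2 fold change of 0.06. Both shares were below the 25.9% higher and 27.9% lower of all tested rows. The 4 rises became 0 without SsA replicate 2, SsA replicate 3, DMSO replicate 1 or DMSO replicate 2, and 1 without DMSO replicate 3. SFPQ and NONO, the paired RNA-binding proteins that hold the NEAT1 scaffold, had log2 fold changes of 0.10 and 0.12 that did not pass (adjusted p = 0.205 and 0.370). PSPC1, their paralogue, rose slightly to 77.1 ± 3.44 CPM in SsA, against 67.1 ± 1.49 CPM in DMSO (log2 0.20, adjusted p = 0.0294). The 3 of smallest p all fell: RBM12 (log2 -0.48), the cleavage factor subunit CPSF7 (log2 -0.60) and the remodeller SMARCA4 (log2 -0.38). HNRNPK, which promotes the long NEAT1 isoform by blocking early cleavage, rose by 0.22 on the log2 scale (adjusted p = 0.0367), while the cleavage factor subunits CPSF6 and NUDT21 (log2 -0.04 and 0.12) did not pass. With the length correction 9 of the 20 rose and 1, CPSF7, fell, beside 15.8% and 16.9% of all rows. HNRNPK (log2 0.14, adjusted p = 0.143) and PSPC1 (log2 -0.0044, adjusted p = 0.962) did not pass with that correction. In the 4 low-mitochondrial libraries, 7 rose and 6 fell, beside 33.3% and 34.5% of all rows.

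KCNQ1OT1 (ENSG00000269821, chr11:2608328-2699994, minus strand) is an antisense RNA of 91667 nt inside KCNQ1. It had 0 counts in SsA replicates 1, 2 and 3 and in DMSO replicates 1 and 2, and 1 count in DMSO replicate 3. A count of 0 allows up to 3 counts, or 0.0431 to 0.0509 CPM of the total count in the SsA libraries and 0.0400 to 0.0416 in DMSO replicates 1 and 2, for counting error only. The RNA was thus not detectable at this depth, and no fold is given. KCNQ1, which overlaps it on the other strand and encodes a potassium channel, had 57, 56 and 109 counts in SsA and 129, 59 and 50 counts in DMSO, and did not pass the filter. The sources used here do not say how reads in the shared interval were assigned.

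The imprinted domain around KCNQ1OT1 was lowly expressed in part, with 7 of 10 listed genes that had a row being tested. Of the 7, 5 rose and 2 did not pass, and every value was above 0, with a median log2 fold change of 0.51, beside 25.9% of all tested rows called higher. CDKN1C, a cell cycle inhibitor silenced in cis by KCNQ1OT1 on the paternal copy, had 12.3 ± 1.11 CPM in SsA and 7.19 ± 0.655 CPM in DMSO (log2 0.78, adjusted p = 0.00277). PHLDA2, another imprinted gene of the cluster, had 15.1 ± 2.30 CPM in SsA and 9.64 ± 2.63 CPM in DMSO (log2 0.64, adjusted p = 0.0370). OSBPL5 (log2 0.35), CARS1 (log2 0.48) and CD81 (log2 0.56) rose as well. TSSC4 (log2 0.51) and NAP1L4 (log2 0.17) did not pass. With the length correction 4 of the 7 were called higher, beside 15.8% of all rows, PHLDA2 having a value of -0.15. Limma on log2(TPM + 1) called 0 of them, but it called only 49 of the 11427 tested rows higher. All 7 were called higher when only the 4 low-mitochondrial libraries were used, a fit that called 33.3% of all rows higher. The count was 3 without SsA replicate 2 or without DMSO replicate 1, fits that called 2005 and 2168 rows higher. Parental alleles are not told apart in these counts.

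TUG1 (ENSG00000253352, chr22:30969245-30978847, plus strand) is transcribed away from MORC2, with which it shares a promoter region. It had 189.9, 152 and 141 CPM in SsA replicates 1, 2 and 3, against 219, 221 and 277 CPM in DMSO replicates 1, 2 and 3. The groups did not overlap, and the libraries of high mitochondrial share were the highest of each group, opposite to NEAT1. The means were 161 ± 25.5 CPM in SsA and 239 ± 32.9 CPM in DMSO (log2 -0.57 ± 0.14, adjusted p = 0.0122). The difference was -0.55 between the high-mitochondrial libraries and -0.59 among the other 4. With the length correction it was -0.067 (adjusted p = 0.688), so the call was lost. Of the 19 alternatives, all gave a lower value and 16 passed the test.

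The core of Polycomb repressive complex 2, which TUG1 and KCNQ1OT1 have been reported to bind, was described by 10 genes. Of these 1 rose (10.0%), 3 fell (30.0%) and 6 did not pass, with a median log2 fold change of -0.09. Over all tested rows 25.9% rose and 27.9% fell, so the share of falls was near that of all rows. JARID2, an accessory subunit that recruits the complex, had 16.0, 12.8 and 12.9 CPM in SsA against 28.2, 24.6 and 31.6 CPM in DMSO (log2 -1.02 ± 0.13, adjusted p = 0.00101). EZH1, a catalytic subunit (log2 -0.62), and SUZ12, a core subunit (log2 -0.52, adjusted p = 0.00135), fell too, and each of the 3 was also lower with the length correction (log2 -0.68, -0.42 and -0.33). The other catalytic subunit, EZH2, had a log2 fold change of -0.08 that did not pass, and the histone-binding subunit RBBP7 rose (log2 0.33). With the length correction 3 of the 10 were called lower and 2 higher, beside 16.9% and 15.8% of all rows. The higher ones were RBBP7 (log2 0.44, adjusted p = 0.00396) and RBBP4 (log2 0.66, adjusted p = 5.12e-04).

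NORAD (ENSG00000260032, chr20:36045618-36051018, minus strand) is a cytoplasmic RNA of 1 exon that sequesters Pumilio proteins through the elements printed above. It had 187, 244 and 238 CPM in SsA replicates 1, 2 and 3, against 454, 429.8 and 363 CPM in DMSO replicates 1, 2 and 3. All SsA libraries lay below all DMSO libraries. The means were 223 ± 31.2 CPM in SsA and 416 ± 47.3 CPM in DMSO (log2 -0.90 ± 0.13, adjusted p = 0.00143). The difference was -0.95 between the high-mitochondrial libraries and -0.87 among the other 4, and -0.60 with the length correction (adjusted p = 0.0141). It was lower under all 19 alternatives and passed the test under 18 of them, the exception being the length correction together with a replicate block (adjusted p = 0.0565).

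The partners of NORAD were described by 8 genes, all tested, of which 3 rose and 2 fell, with a median log2 fold change of 0.05. The 2 falls became 1 when any library other than DMSO replicate 3 was left out. They became 0 with the length correction, which called 16.9% of all rows lower. PUM2, which encodes a Pumilio protein, had 127 ± 3.96 CPM in SsA and 143 ± 6.11 CPM in DMSO (log2 -0.17 ± 0.06, adjusted p = 0.0474). Its direction depended on length, with a value of 0.22 (adjusted p = 0.0493) after the correction. Among the nuclear proteins reported with NORAD, RBMX rose (log2 0.27, adjusted p = 0.00662), as did the export adaptor ALYREF (log2 0.56) and the splicing factor PRPF19 (log2 0.18), while TOP1 (log2 -0.06), CDC5L (log2 -0.05) and KHDRBS1 (log2 0.14) did not pass. Corrected for length, RBMX stayed higher (log2 0.51), whereas ALYREF (log2 -0.15, adjusted p = 0.30) and PRPF19 (log2 -0.09, adjusted p = 0.280) turned in sign and did not pass.

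OIP5-AS1 (ENSG00000247556, chr15:41283990-41309737, plus strand) carries the miR-7 site shown above. It had 191, 203 and 196 CPM in SsA replicates 1, 2 and 3, against 222, 236 and 229.7 CPM in DMSO replicates 1, 2 and 3. Its libraries were the closest within groups, with a coefficient of variation of 3.07% in SsA and 2.97% in DMSO, and the groups did not overlap. The means were 197 ± 6.03 CPM in SsA and 229 ± 6.82 CPM in DMSO, a small difference of log2 -0.22 ± 0.06 (adjusted p = 0.0153). The call was lost without SsA replicate 3 (adjusted p = 0.0549) and without DMSO replicate 2 (adjusted p = 0.0507). With a correction at its longest transcript of 8829 nt the sign turned, to 0.39 (adjusted p = 0.0056), and with one at its second longest, of 1482 nt, it was -0.73 (adjusted p = 5.24e-04). It was lower under 17 of the 19 alternatives and called lower under 11, and the other 2 both used the correction at the longest transcript. Which transcripts were expressed was not tested.

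Genes that act with OIP5-AS1 or miR-7 fell in 5 of 7 tested cases, with a median log2 fold change of -0.61, beside 27.9% of all tested rows called lower and 68.9% of protein-coding rows of 5859 to 7554 nt. None rose by edgeR, by DESeq2 or at an unadjusted p below 0.05, and 1 was called higher when only the 4 low-mitochondrial libraries were used (33.3% of all rows). ZSWIM8, the ubiquitin ligase adaptor of target-directed microRNA decay, had 33.5 ± 2.76 CPM in SsA and 53.4 ± 3.73 CPM in DMSO (log2 -0.67 ± 0.09, adjusted p = 0.00104). AGO2, the slicing Argonaute, had 90.5 ± 5.50 CPM in SsA and 219 ± 9.99 CPM in DMSO (log2 -1.28 ± 0.07, adjusted p = 6.40e-05). AGO1 (log2 -0.61), AGO4 (log2 -0.80) and the kinase gene GAK (log2 -0.60) fell. ELAVL1, an RNA-binding protein reported to bind OIP5-AS1, and CUL3, the cullin of the ZSWIM8 ligase, had log2 fold changes of 0.11 and 0.01 that did not pass. These are long genes, of 6741 nt at the median. With the length correction 3 of the 7 fell and 2 rose, beside 16.9% and 15.8% of all rows. Those that fell were AGO2 at -0.35, ZSWIM8 at -0.30 and GAK at -0.43. AGO1 turned in sign (log2 0.27, adjusted p = 0.108) and AGO4 did not pass (log2 -0.33, adjusted p = 0.0884). Mature miR-7 was not analysed here.

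**Figure D3:**
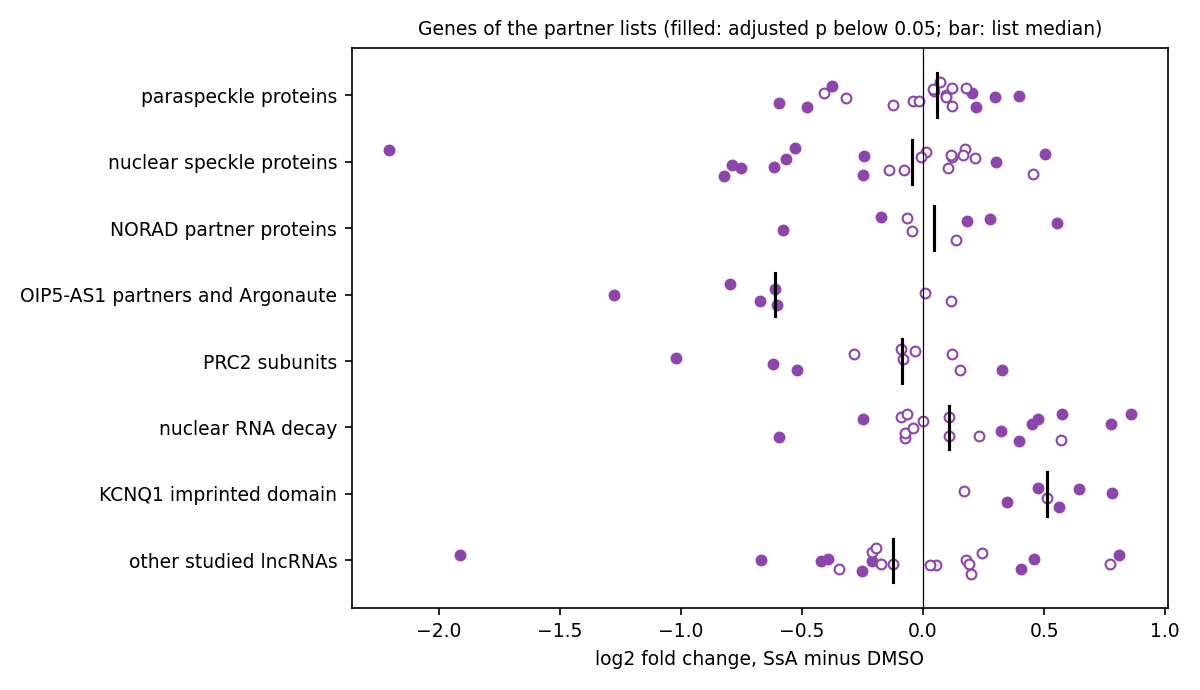
Log2 fold change (SsA minus DMSO, horizontal axis) of each tested gene of the 8 lists, filled where the adjusted p was below 0.05, with the list median as a bar. SRRM2, at -2.21, is the farthest to the left, and no tested gene of the KCNQ1 domain lies below 0.

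The size of the falls has to be read beside transcript length, since fold changes over 10040 protein-coding rows went with the longest annotated transcript at a slope of -0.43 per doubling (Spearman's rho -0.71 across genes, which are not independent replicates). MALAT1 has 8708 nt, and 13.4% of protein-coding rows of the top length decile lay below it. NORAD has 5339 nt, and 6.68% of the rows of its length decile, whose median was -0.32, lay below it. TUG1, NEAT1 and OIP5-AS1 were less extreme, with 38.2%, 40.6% and 79.5% of their deciles below them. In the decile of MALAT1, NEAT1 and OIP5-AS1 78.2% of rows were called lower, in that of NORAD 53.3% and in that of TUG1 68.9%, so being called lower was common at these lengths. NEAT1 lies beyond nearly all of this range, with 5 tested protein-coding rows having a longer transcript.

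With log2 CPM corrected for that trend in each library, MALAT1 stayed lower at -0.72 ± 0.14 (adjusted p = 0.00821) and NORAD at -0.60 ± 0.13. Under the same correction 32.7% of all rows were called in either direction and 16.9% were called lower. NEAT1 turned to 0.40 ± 0.32 (adjusted p = 0.383) at its transcript of 22743 nt and was -0.76 (adjusted p = 0.0576) at 3524 nt. The count of the 5 called lower was thus 2 at the longest transcripts. What made the fold changes go with length was not tested.

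**Figure D4:**
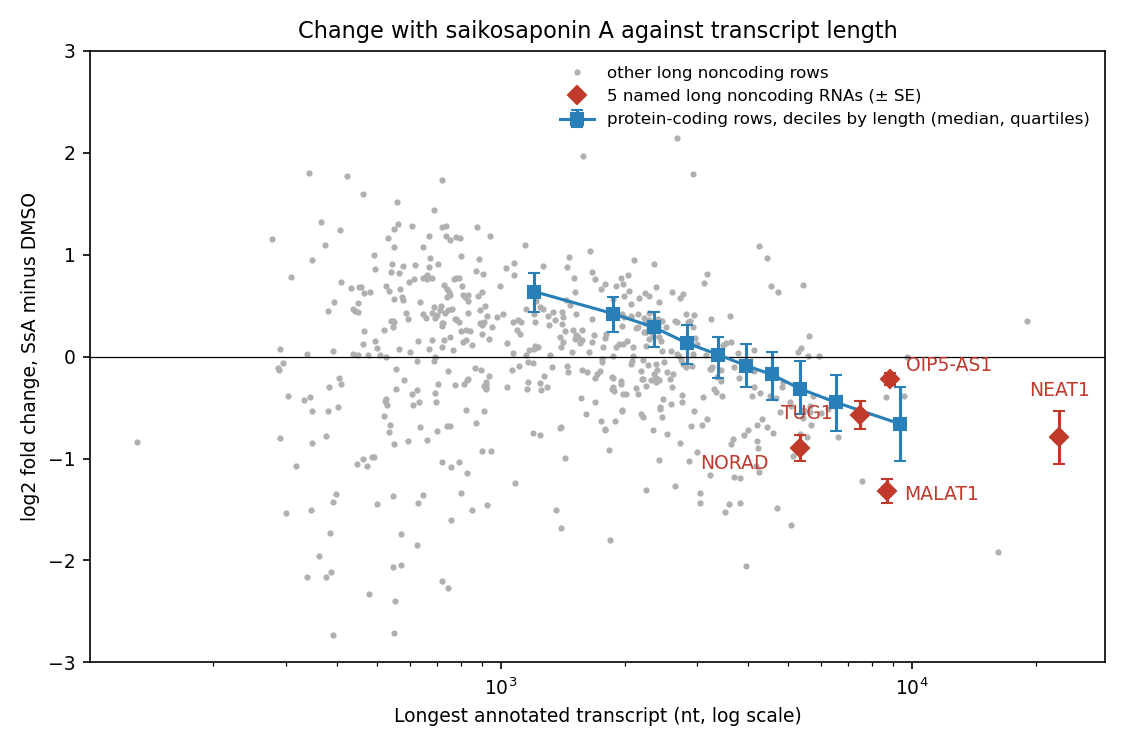
Log2 fold change (SsA minus DMSO) against the longest annotated transcript in nt (log axis), for 5 named RNAs with SE, other long noncoding rows as grey dots, and deciles of the protein-coding rows by length as medians with quartiles. MALAT1 and NORAD lie below the lower quartile of their length decile, and OIP5-AS1 lies above the upper quartile; 6 grey points are outside the axis.

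**Figure D5:**
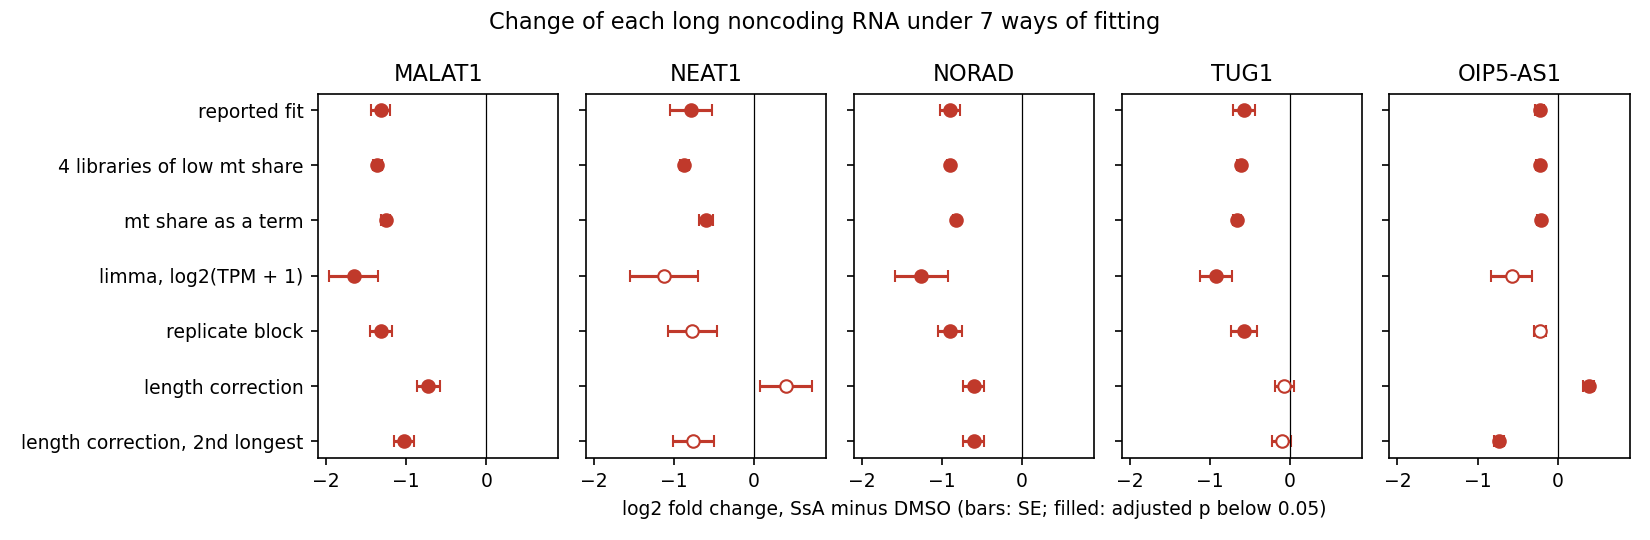
Log2 fold change (SsA minus DMSO, horizontal axis) with SE of each RNA under 7 ways of fitting, filled where the adjusted p was below 0.05; mt stands for mitochondrial. MALAT1 is filled and below 0 in every line, NEAT1 and OIP5-AS1 lie above 0 in the line with the length correction at the longest transcript.

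By deposited FPKM, the order of the RNAs was the same in both groups. That order depends on the lengths used for the division. OIP5-AS1 was divided by 12.6 kb and TUG1 by 10.1 kb, above their longest annotated transcripts of 8829 and 7469 nt. MALAT1 was divided by 8.81 kb, near its 8708 nt. The order at the annotated lengths was not tested. In SsA, NORAD averaged 33.7 ± 6.72 FPKM, NEAT1 26.4 ± 7.40, MALAT1 13.3 ± 2.09, TUG1 12.8 ± 1.19 and OIP5-AS1 12.6 ± 1.17 FPKM. In DMSO, NORAD averaged 70.4 ± 13.4 FPKM, NEAT1 51.7 ± 18.8, MALAT1 37.2 ± 7.55, TUG1 21.2 ± 0.992 and OIP5-AS1 16.4 ± 1.46 FPKM. The libraries of NORAD and NEAT1 overlapped in SsA, as did those of MALAT1 with TUG1 and of TUG1 with OIP5-AS1. In DMSO, NORAD overlapped NEAT1 and NEAT1 overlapped MALAT1, while MALAT1, TUG1 and OIP5-AS1 were apart. Among 569 tested long noncoding rows, MALAT1 ranked 24th by FPKM in SsA and 12th in DMSO, and NORAD 11th in SsA and 8th in DMSO.

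Ratios within a library do not depend on scaling between libraries, and 10 pairs were compared. The log2 ratio of MALAT1 to NORAD was -0.63 ± 0.07 in SsA and -0.21 ± 0.06 in DMSO, a difference of -0.42. Its difference to OIP5-AS1 was -1.10, to TUG1 -0.74 and to NEAT1 -0.55, and that of NORAD to OIP5-AS1 was -0.68. In these 5 pairs the groups did not overlap, each with an exact permutation p of 0.1, the smallest possible with 3 against 3, and 0.2 after Benjamini-Hochberg adjustment over the 10. In the other 5 pairs the groups overlapped. A ratio shows unequal change, not which RNA moved.

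Measured over the 6 libraries, NORAD had the pattern nearest to MALAT1 among the other 4, with a root-mean-square difference of 0.214 in centred log2 CPM, the same as between NORAD and NEAT1. TUG1 and NEAT1 were 0.520 apart, having opposite outlying libraries. Over all tested genes, the nearest to MALAT1 were GOLGA8A (0.0612), a golgin family gene with close copies whose reads may be shared, and ATXN1L (0.0708). Nearest to NORAD were NACC2 (0.0374) and the antisense row AL160006 (0.0531), to TUG1 HEATR6 (0.0210) and AP3D1 (0.0320), and to OIP5-AS1 LYRM7 (0.0162) and EAF1 (0.0183). NEAT1 had no neighbour as close, STAG3L5P being at 0.109 and AC012513 at 0.135. The measure includes the group difference itself.

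Genes lying within 50 kb were tested where they passed the filter. Beside NEAT1, FRMD8 had 15.0 ± 2.56 CPM in SsA and 21.6 ± 3.12 CPM in DMSO (log2 -0.53, adjusted p = 0.0290). Beside MALAT1, LTBP3, which binds latent TGF-beta, fell (log2 -0.56, adjusted p = 0.00374). A pseudogene row between them, ENSG00000173727, had a value of 0.73 that did not pass (adjusted p = 0.111). MORC2, the silencing ATPase that starts 471 nt from TUG1 on the other strand, had 37.3 ± 2.42 CPM in SsA and 53.3 ± 0.331 CPM in DMSO (log2 -0.51, adjusted p = 0.00124), and EPB41L1 near NORAD fell with overlapping groups (log2 -0.50, adjusted p = 0.0462). Corrected for length, LTBP3 (log2 -0.38) and MORC2 (log2 -0.24) stayed lower, and the calls of FRMD8 (log2 -0.46, adjusted p = 0.0594) and EPB41L1 (log2 -0.07, adjusted p = 0.771) were lost.

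OIP5, which overlaps the end of OIP5-AS1 on the other strand and encodes a centromere protein, moved the other way. It had 36.4 ± 3.81 CPM in SsA and 23.7 ± 3.38 CPM in DMSO (log2 0.62 ± 0.13, adjusted p = 0.0069). With the length correction it was at -0.0040 (adjusted p = 0.979), its transcript having 1236 nt. The sources used here give no strand setting for the counting, so reads of the shared end cannot be assigned. The calcium-binding protein gene CHP1 (log2 0.03) and the spindle gene NUSAP1 (log2 0.09) near it did not pass. A further row, ENSG00000285920, overlaps OIP5-AS1 on its own strand and held 647 counts in all.

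Factors of nuclear RNA decay, among them the exosome and its adaptors, were described by 19 tested genes, with a median log2 fold change of 0.11. Of the 19, 7 rose (36.8%), 2 fell (10.5%) and 10 did not pass, beside 25.9% higher and 27.9% lower over all tested rows. The 7 rises became 4 without SsA replicate 2, SsA replicate 3 or DMSO replicate 3, and the 2 falls became 1 without SsA replicate 2, SsA replicate 3, DMSO replicate 1 or DMSO replicate 3. EXOSC1 (log2 0.57) and EXOSC4 (log2 0.78), subunits of the exosome, rose, and ZFC3H1, which links poly(A) RNA to the exosome, fell (log2 -0.60). The helicase MTREX had a value of -0.07 that did not pass. Corrected for length, 4 rose, beside 15.8% of all rows, with EXOSC1 among them (log2 0.29). EXOSC4 (log2 0.06, adjusted p = 0.622) and ZFC3H1 (log2 -0.08, adjusted p = 0.399) were then not called. DIS3, a catalytic exosome subunit and the other fall (log2 -0.25), was called higher with the length correction (log2 0.47).

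Among 21 other well-known long noncoding RNAs that were tested, 3 rose (14.3%), 6 fell (28.6%) and 12 did not pass, with a median log2 fold change of -0.12. Over all tested rows 25.9% were called higher and 27.9% lower. In the low-mitochondrial libraries 6 rose and 7 fell, beside 33.3% and 34.5% of all rows, and without DMSO replicate 1 the falls were 3, without SsA replicate 2 they were 4. GABPB1-AS1 had the largest fall of them, with 24.3 ± 1.73 CPM in SsA and 91.4 ± 10.5 CPM in DMSO (log2 -1.91 ± 0.10, adjusted p = 5.93e-05), and it was also lower with the length correction (-0.93). HCG11 fell (log2 -0.67), and the short DANCR rose to 85.4 ± 3.14 CPM in SsA, against 48.7 ± 2.05 CPM in DMSO (log2 0.81, adjusted p = 1.77e-04). After the length correction neither DANCR (log2 -0.011, adjusted p = 0.938) nor HCG11 (log2 -0.34, adjusted p = 0.103) passed. Of 564 tested long noncoding rows with the 5 left out, 74 rose (13.1%) and 118 fell (20.9%), with a median log2 fold change of 0.05. The 27 of these with a transcript of at least 5000 nt had a median of -0.49, with 15 falling and 2 rising, while the 537 shorter ones had a median of 0.07, with 103 falling and 72 rising. The length correction moved these counts: 14 of the 564 were then called higher and 190 lower, with a median of -0.47. Over all rows it called 15.8% higher and 16.9% lower. Among the 537 shorter rows 12 were then higher and 185 lower, with a median of -0.50. Among the 27 rows of at least 5000 nt, 2 were then higher and 5 lower, with a median of -0.18.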

How the data were processed

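The deposited gene table of 29435 rows held whole-number counts and FPKM per library, per the file headers. The counts were deposited as not normalised, with totals that differed between libraries. The deposited FPKM had been divided by gene length and depth by the authors, per the file headers. Trizol RNA was selected on oligo(dT) beads and made into dUTP libraries, which mark the strand, per the labels' protocols. The submitters' processing notes name GRCh38, HISAT2 2.0.4, cutadapt 1.9 and StringTie 1.3.4d. The annotation release, the counting step and its strand setting are not given in the sources used.

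Rows with at least 1 FPKM in at least 3 libraries (11427) were TMM-scaled and fitted with edgeR 4.0.16 (R 4.3.3), using its two-sided quasi-likelihood test without a replicate block, with Benjamini-Hochberg adjustment over all of them and a threshold of 0.05. The biological coefficient of variation was 15.3%. The smallest member count was 6668, with a counting error of 1.22%. The length correction used, as an offset, each library's linear trend of log2 CPM on log2 length of the longest GENCODE 29 transcript over protein-coding rows (28679 rows matched by ID). Implied length, the unscaled CPM over FPKM, was tested with limma 3.58.1. Alternatives were DESeq2 1.42.0, limma on log2(FPKM + 1) and log2(TPM + 1), other filters and scalings, leaving out libraries, the mitochondrial share as a term and a replicate block. Fits were tested on simulated data.

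The 6 RNAs and all lists were chosen with earlier results of these data known, so lists are described by counts and medians without a test. Named genes were the 6 RNAs, the 3 called genes of smallest p per list, direct partners, the 2 nearest patterns per RNA and tested rows within 50 kb; other list genes given with values were added after these were seen, and some genes that the rule names are not reported here. The length correction at the second longest transcript, that with the replicate block and the scaled implied length were chosen after seeing the data.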

Additional observations from a re-analysis of the deposited data

How the results depend on the processing

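With the replicate block, 3 of the 6 RNAs and 4616 of the 11427 rows were called. NEAT1 was then at -0.77 (adjusted p = 0.101) and OIP5-AS1 at -0.22 (adjusted p = 0.0609). The numbers did not pair the libraries, since deviations of same-numbered libraries correlated at -0.416, 0.365 and -0.444. No expression filter and edgeR's own filter also left 3 called, in fits that called 6107 of 29435 and 6864 of 17831 rows. These put NEAT1 at -0.74 and -0.73 and OIP5-AS1 at -0.17 and -0.16. Limma on log2(TPM + 1), which shifted the median of all rows to -0.31, left 3 called (NEAT1 -1.12, OIP5-AS1 -0.57) with 2495 rows called and 49 of them higher. Limma on log2(FPKM + 1), with a median of -0.11, put NEAT1 at -0.91 with 914 rows higher. The length correction called 3735 rows (1800 higher, 1935 lower) and 3 of the RNAs, with TUG1 at -0.067 and, with the sign turned, NEAT1 at 0.40 and OIP5-AS1 at 0.39. Together with the replicate block it called 2095 rows (985 higher, 1110 lower) and 2 RNAs, with NORAD at -0.61, TUG1 at -0.071, NEAT1 at 0.42 and OIP5-AS1 at 0.39. At the second longest transcript it called 3735 rows (1799 higher, 1936 lower) and 3 RNAs, with TUG1 at -0.10 and NEAT1 at -0.76. The cause of these shifts was not tested.

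Leaving out 1 library at a time called 3 to 5 of the RNAs, with NEAT1 at -1.04 to -0.62, OIP5-AS1 at -0.25 to -0.20 and 4599 to 6402 rows called. The 4 libraries of low mitochondrial share, the mitochondrial share as a term and DESeq2 each called all 5. These fits called 7747, 8174 and 6757 of the 11427 rows, so a call was common in each. Implied length, scaled by single-transcript genes, turned sign at values near 0: MALAT1 -8.74e-05, NEAT1 -2.87e-04, NORAD -3.07e-04 and OIP5-AS1 -2.33e-04. Of 304 recomputed list counts, 94 moved by over 1.5 times. At this depth the 0 counts of KCNQ1OT1 allow up to 3.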
